A study of Homo sapiens with 8 samples.

Results

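The transcripts of YAP1, of its paralog WWTR1 (which encodes TAZ), of the DNA-binding partners TEAD1, TEAD2, TEAD3 and TEAD4, and of the target genes CCN1, CCN2, ANKRD1 and AMOTL2 were followed in MDA-MB-231, a human cell line of triple-negative breast cancer. These 10 genes were taken by symbol from a table of 60646 Ensembl genes, and each symbol matched 1 row. The table holds RNA-seq counts from 8 samples. Of these, 4 libraries were labelled DOT1L knockout (DOT1L/+), from cells made with a guide to exon one of DOT1L, and 4 libraries came from MDA-MB-231 cells labelled wild-type. Both groups grew in DMEM with 5% FBS, were plated at about 50% confluency and were harvested a day later. The labels do not say which edit was made, how many alleles carry it, or whether the knockout cells were 1 clone, and knockout here stands for the label. Nor do they state that each library had its own culture, so the p-values below weigh differences only against the variation among these libraries, which may be technical.

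YAP and TAZ are transcriptional coactivators without a DNA-binding domain. They enter the nucleus and bind TEAD factors, which recognise the sequence GGAATG, to drive genes of growth, adhesion and the cytoskeleton. The Hippo pathway restrains them: the kinases MST1 and MST2 (genes STK4 and STK3) activate LATS1 and LATS2, which phosphorylate YAP and TAZ so that they are held in the cytoplasm or degraded. Cell density, cell shape and matrix stiffness act on this balance, and the activity of YAP and TAZ is set largely by phosphorylation and location, which RNA levels do not show. MDA-MB-231 cells carry a mutation in the upstream regulator NF2 and are known for nuclear YAP and TAZ.

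The promoters below are those of the 10 genes in which the TEAD element was found, and are shown because TEAD factors are known to bind it. RefSeq sequence (GRCh38.p14) was at hand for 7 of the 10 genes, not for TEAD1, TEAD4 and CCN1, with 10 start sites in all. The 250 bases before each start were searched on both strands for GGAATG, the TEAD element (CATTCC on the other strand). They were also searched for TGANTCA, a loose pattern for the AP-1 element with any middle base, which reads alike on both strands. In the sequences below, given 5′ to 3′ on the strand of the gene, capitals mark these matches, and no match of one element overlaps one of the other. They lie at chr6:131951373-131951622, minus strand for CCN2, chr10:90921088-90921337, minus strand for ANKRD1, chr3:134374448-134374697, minus strand for the second start of AMOTL2, and chr11:102110197-102110446, plus strand for YAP1.
CCN2: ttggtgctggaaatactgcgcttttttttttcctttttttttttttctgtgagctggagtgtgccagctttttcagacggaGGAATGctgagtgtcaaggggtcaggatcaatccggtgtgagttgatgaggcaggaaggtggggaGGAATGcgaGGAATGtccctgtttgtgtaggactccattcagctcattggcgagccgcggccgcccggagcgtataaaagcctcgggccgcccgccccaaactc
ANKRD1: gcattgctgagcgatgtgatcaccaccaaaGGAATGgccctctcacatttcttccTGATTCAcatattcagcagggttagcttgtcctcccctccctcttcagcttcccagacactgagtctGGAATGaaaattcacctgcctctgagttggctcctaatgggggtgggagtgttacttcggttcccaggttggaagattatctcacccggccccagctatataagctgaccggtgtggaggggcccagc
AMOTL2: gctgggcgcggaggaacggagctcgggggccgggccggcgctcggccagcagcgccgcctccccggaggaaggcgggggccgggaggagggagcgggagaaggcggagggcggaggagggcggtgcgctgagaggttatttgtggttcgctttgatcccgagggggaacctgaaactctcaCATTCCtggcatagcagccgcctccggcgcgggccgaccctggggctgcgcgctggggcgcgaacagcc
YAP1: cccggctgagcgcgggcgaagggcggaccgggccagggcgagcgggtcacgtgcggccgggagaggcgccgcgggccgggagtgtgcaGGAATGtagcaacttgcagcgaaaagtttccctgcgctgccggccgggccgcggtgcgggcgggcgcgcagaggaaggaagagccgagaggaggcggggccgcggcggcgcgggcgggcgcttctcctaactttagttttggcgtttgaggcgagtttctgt
CCN2 held 3 copies of GGAATG, the first bases of which stood 169, 104 and 95 bases before the start. ANKRD1 held 2 copies, at 220 and 128 bases, and 1 copy of TGANTCA, in the form TGATTCA, at 195 bases before the start. This start of AMOTL2 and that of YAP1 held 1 GGAATG each. No match of GGAATG was found at the first start of AMOTL2, at both starts of WWTR1 and of TEAD2, or at that of TEAD3, so 4 of the 10 starts held it. Of 35116 promoters searched in the same way, 11.9% held GGAATG and 6.57% held TGANTCA. Of 14 starts of the further target genes described later, 5 held GGAATG. A match describes these letters and does not show that a factor binds there.

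Libraries held 40103408 to 50031412 counts. The 10 genes had between 294 and 83160 counts in a library and all passed the filter on low counts. DOT1L, the targeted gene, was at 85.3, 78.1, 83.2 and 92.3 CPM in knockout replicates 1, 2, 3 and 5, against 115, 101, 103 and 118 CPM in wild-type replicates 1, 2, 3 and 5, a log2 change of -0.37 (SE 0.06, adjusted p = 2.83e-05, edgeR). CPM are counts scaled to library size, corrected by trimmed means. Markers of a basal, mesenchymal breast line (VIM, CD44, EGFR, CAV1 and ANXA1) summed to 5596 to 6063 CPM in knockout and 4880 to 5482 CPM in wild-type libraries. The luminal markers ESR1, PGR, GATA3, CDH1 and FOXA1 summed to 12.9 to 14.8 CPM in knockout and 10.5 to 12.5 CPM in wild-type libraries, with CDH1 at 0.212 ± 0.0667 CPM in knockout and 0.0059 ± 0.012 CPM in wild-type cells (SD, n = 4 each). Leukocyte and endothelial markers (PTPRC, CD3E, PECAM1 and VWF) summed to 1.30 to 1.63 CPM in knockout and 0.380 to 1.102 CPM in wild-type libraries. CD3E was at or near 0 CPM in every library. These marker sums were higher in knockout libraries, although of the 5 basal markers 1 was higher and 2 were lower by the test. VIM was higher, at 3871 ± 193 CPM in knockout and 2941 ± 204 CPM in wild-type cells. EGFR (means of 488 and 637 CPM) and ANXA1 (248 and 305 CPM) were lower, and CD44 and CAV1 did not pass. Of all tested genes 23.9% were higher and 23.6% lower. VWF was higher (0.718 CPM in knockout and 0.182 CPM in wild-type cells), and PECAM1 did not pass. The part of these markers in the results below was not tested.

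YAP1, TEAD4 and CCN2 rose in knockout cells, TEAD1 and TEAD2 fell, and WWTR1, TEAD3, CCN1, ANKRD1 and AMOTL2 did not pass the test. All 5 changes were smaller than 2-fold. Of the 10 genes, 5 (50%) thus passed an adjusted p of 0.05 in edgeR's quasi-likelihood test, while 47.6% of all 19877 tested genes did. By direction 3 of 10 rose, against a background of 23.9%, and 2 of 10 fell, against 23.6%. The groups did not overlap for 4 of the 10 genes (40%), against 43.4% of all tested genes; 2 lay higher (background 21.3%) and 2 lower (22.1%). With the replicate number as a block the same 5 genes passed, 3 higher and 2 lower, beside 52.7% of all genes (26.6% higher and 26.1% lower). The median log2 change was 0.0075 for the 10 genes and 0.0025 for all tested genes, so the share of changed genes and the median lay near those of all genes. In bulk RNA, fewer expressing cells and less RNA per cell cannot be told apart.

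**Figure D1:**
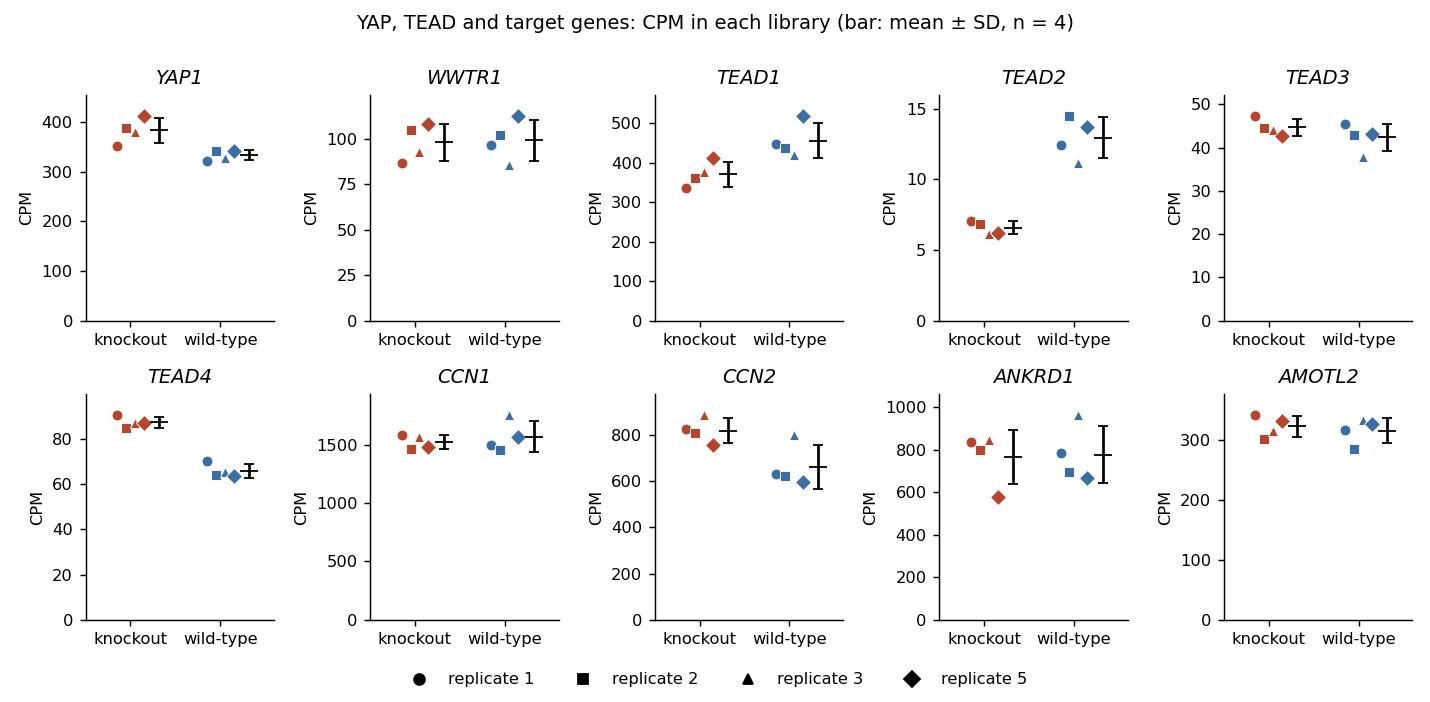
CPM of each gene in each library (y axis, from 0), knockout left and wild-type right; symbols mark replicate numbers and bars the mean ± SD of 4 libraries. TEAD2, TEAD4, TEAD1 and YAP1 show groups that do not overlap, whereas wild-type replicate 3 of CCN2, at 800.3 CPM, lies within the range of the knockout libraries.

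Among the coactivators, YAP1 rose slightly and WWTR1 did not pass. YAP1 (ENSG00000137693, chromosome 11, 102110461 to 102233423, plus strand, GRCh38) was at 351, 388, 381 and 413 CPM in knockout replicates 1, 2, 3 and 5, against 322, 342, 328 and 341 CPM in wild-type replicates 1, 2, 3 and 5. Every knockout library lay above every wild-type library. The means were 383 ± 25.6 CPM in knockout and 333 ± 10.1 CPM in wild-type cells (SD, n = 4 each), and YAP1 was 1.15-fold higher (log2 change 0.20, SE 0.05, adjusted p = 0.00253, edgeR). WWTR1 (ENSG00000018408, chromosome 3, 149517235 to 149736714, minus strand) was at 87.0, 105, 92.7 and 108 CPM in the knockout libraries, against 96.7, 102, 85.9 and 113 CPM in the wild-type libraries. Its groups overlapped throughout, with a log2 change of -0.02 (95% interval -0.21 to 0.18, adjusted p = 0.895, edgeR). Whether the coactivators moved by different amounts was tested on the log2 ratio of WWTR1 to YAP1 counts within each library, which does not depend on library scaling. It differed by -0.22 between knockout and wild-type cells (exact two-sided permutation p = 0.0857, also after adjustment over 8 ratios, n = 4 each), and the groups overlapped. It was lower in 4 of 4 pairs of same-numbered samples, by -0.105 to -0.338; over 4 pairs an exact sign-flip permutation test cannot give a p below 0.125. Without wild-type replicate 3 the difference was -0.28 and passed (adjusted exact permutation p = 0.0327).

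The TEAD factors changed in opposite directions. TEAD2 (ENSG00000074219, chromosome 19, 49340595 to 49362457, minus strand), the least abundant of the family here, showed the largest change of the 10 genes. It was at 7.06, 6.86, 6.14 and 6.21 CPM in knockout replicates 1, 2, 3 and 5, against 12.4, 14.5, 11.2 and 13.7 CPM in wild-type replicates 1, 2, 3 and 5. The knockout libraries were all at 7.06 CPM or below, and the lowest wild-type library was at 11.2 CPM. The log2 change was -0.98 (SE 0.09, adjusted p = 1.14e-08, edgeR), and TEAD2 was lower in 4 of 4 pairs of same-numbered samples, by -0.81 to -1.13.

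TEAD1 (ENSG00000187079, chromosome 11, 12674591 to 12944483, plus strand), a widely expressed family member, also fell. It was at 334, 360.2, 375 and 411 CPM in the knockout libraries, against 446, 437, 419 and 519 CPM in the wild-type libraries. The highest knockout library stood just below the lowest wild-type library, and the log2 change was -0.30 (SE 0.07, adjusted p = 0.00200, edgeR). TEAD4 (ENSG00000197905, chromosome 12, 2959330 to 3040673, plus strand) rose. Its levels were 90.7, 84.7, 87.1 and 87.1 CPM in knockout replicates 1, 2, 3 and 5, against 70.3, 64.1, 65.3 and 63.6 CPM in wild-type replicates 1, 2, 3 and 5. The groups were well apart, with means of 87.4 ± 2.49 CPM in knockout and 65.8 ± 3.06 CPM in wild-type cells (SD, n = 4 each) and a log2 change of 0.41 (SE 0.05, adjusted p = 2.58e-07, edgeR). TEAD3 (ENSG00000007866, chromosome 6, 35473597 to 35497076, minus strand) was at 42.6 to 47.4 CPM in knockout and 37.9 to 45.4 CPM in wild-type libraries. These ranges overlapped, and the log2 change of 0.08 did not pass (95% interval -0.04 to 0.20, adjusted p = 0.284, edgeR).

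The make-up of the TEAD transcripts therefore differed, while their sum was similar. Scaled to exon length, the 4 TEAD genes together came to 91.4 ± 2.22 CPM per kb in knockout and 91.5 ± 4.97 CPM per kb in wild-type cells (SD, n = 4 each). TEAD4 made up 42.1 ± 1.49% of this sum in knockout and 31.7 ± 2.16% in wild-type cells. TEAD1 made up 39.4 ± 2.63% in knockout and 48.3 ± 2.43% in wild-type cells. TEAD4 had the largest share per length in knockout replicates 1, 2 and 3, TEAD1 in knockout replicate 5 and in all 4 wild-type libraries. The length is that of all annotated exons of a gene joined, 10279 bases for TEAD1 and 2272 for TEAD4. The order of these 2 shares rests on that length, and which isoforms were expressed was not tested. By counts TEAD1 stood above TEAD4 in every library, by a log2 ratio of 1.88 to 2.24 in the knockout libraries. TEAD3 held 16.1 ± 1.002% in knockout and 15.2 ± 0.746% in wild-type cells, and TEAD2 held 2.42 ± 0.215% in knockout and 4.75 ± 0.473% in wild-type cells.

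**Figure D2:**
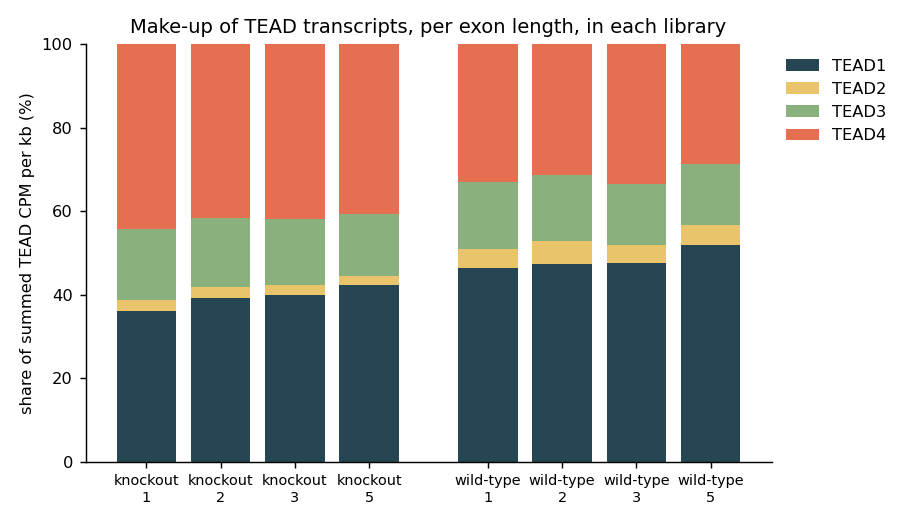
Share of the summed TEAD level (CPM per kb of exon, in percent) held by each gene in each library, knockout libraries left and wild-type libraries right. The TEAD4 share runs from 40.6% to 44.2% in knockout and from 28.8% to 33.6% in wild-type libraries.

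All 6 ratios between TEAD genes differed between the groups, each with groups that did not overlap. Each gave p = 0.0286 in an exact two-sided permutation test with 4 libraries a group, the smallest p that the 70 arrangements allow, and an adjusted p of 0.0327 over the 8 ratios. The log2 ratio of TEAD1 to TEAD4 was 2.08 ± 0.148 in knockout and 2.79 ± 0.168 in wild-type cells (SD, n = 4 each), a difference of -0.71. The ratio of TEAD2 to TEAD4 differed most, by -1.38, and that of TEAD3 to TEAD4 least, by -0.33. The ratio of TEAD1 to TEAD3 differed by -0.38, that of TEAD2 to TEAD3 by -1.05 and that of TEAD1 to TEAD2 by 0.68. The ratios are of counts within a library and describe unequal change, not which gene moved. The 6 ratios are built from the same 4 genes and are not independent. TEAD4 lay wholly higher in CPM, and TEAD1 and TEAD2 wholly lower. Their ratios to TEAD4 therefore had to separate and are not further support. Each ratio went the same way in 4 of 4 pairs of same-numbered samples, where the sign-flip test cannot pass. Without 1 library, the difference of TEAD1 to TEAD3 stayed between -0.449 and -0.299 and that of TEAD3 to TEAD4 between -0.381 and -0.305. With 3 against 4 libraries, the first missed the threshold without any 1 of the wild-type libraries. The second missed it without any 1 of the knockout libraries (adjusted exact permutation p up to 0.0653 for each ratio).

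Of these 4 target genes CCN2 rose, and CCN1, ANKRD1 and AMOTL2 did not pass. CCN2 (also called CTGF; ENSG00000118523, chromosome 6, 131948176 to 131951373, minus strand) encodes a secreted matricellular protein and is a standard readout of YAP and TAZ activity. Its level was 823, 807, 886 and 755 CPM in knockout replicates 1, 2, 3 and 5, against 628, 621, 800.3 and 594 CPM in wild-type replicates 1, 2, 3 and 5. In wild-type replicate 3 it was above knockout replicate 5, so the groups overlapped. The means were 818 ± 54.1 CPM in knockout and 661 ± 94.2 CPM in wild-type cells (SD, n = 4 each), and the log2 change came to 0.31 (SE 0.08, adjusted p = 0.00886, edgeR). It was higher in 4 of 4 pairs of same-numbered samples, by 0.15 to 0.39 on the log2 scale, and without wild-type replicate 3 the log2 change was 0.42 (adjusted p = 3.13e-07, edgeR).

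CCN1 (also called CYR61; ENSG00000142871, chromosome 1, 85580761 to 85583962, plus strand), the closest paralog among the targets and also a secreted matricellular protein, was at 1584, 1461, 1571 and 1479.6 CPM in the knockout libraries, against 1499, 1456, 1757 and 1565 CPM in the wild-type libraries. The ranges overlapped and the log2 change was -0.04 (95% interval -0.16 to 0.08, adjusted p = 0.581, edgeR). The log2 ratio of CCN2 to CCN1 within a library was -0.899 ± 0.0689 in knockout and -1.25 ± 0.109 in wild-type cells (SD, n = 4 each), a difference of 0.36 (exact two-sided permutation p = 0.0286, adjusted p = 0.0327), and it was higher in 4 of 4 pairs. These paralogous targets therefore changed by different amounts.

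ANKRD1 (ENSG00000148677, chromosome 10, 90912096 to 90921276, minus strand), an ankyrin-repeat protein of the nucleus and sarcomere, varied most among libraries. It was at 837, 800.3, 847 and 578 CPM in knockout replicates 1, 2, 3 and 5, against 784, 693, 965 and 667 CPM in wild-type replicates 1, 2, 3 and 5. Replicate 5 was the lowest and replicate 3 the highest library of each group. The log2 change was -0.02, with a 95% interval from -0.42 to 0.38 (adjusted p = 0.929, edgeR), so a change of the size seen for CCN2 lies within it. That interval is from the fit without pairs and holds this replicate variation. Between same-numbered samples ANKRD1 was higher in 2 pairs and lower in 2, with log2 differences from -0.207 to 0.207. AMOTL2 (ENSG00000114019, chromosome 3, 134355874 to 134375479, minus strand), an angiomotin-family scaffold that binds YAP and is itself a target, was at 303 to 342 CPM in knockout and 285 to 334 CPM in wild-type libraries. Its log2 change was 0.03 (95% interval -0.08 to 0.15, adjusted p = 0.662, edgeR). The promoters shown above, with their GGAATG copies, thus belong to targets that changed (CCN2) and that did not pass (ANKRD1 and AMOTL2).

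TEAD4 and TEAD1 lay in stretches of chromosome where most neighbouring genes had moved the same way. For each gene the log2 changes of the 25 nearest tested genes on each side were taken, and the gene was tested again relative to their median. The median was treated as exact, so the SE and adjusted p of this test leave out the spread among neighbours. Around TEAD4, 38 of 50 neighbours over 5.67 Mb rose and 2 fell, with a median of 0.43. Relative to them TEAD4 stood at -0.01 (SE 0.05, adjusted p = 0.890, edgeR). Around TEAD1, 30 of 50 neighbours over 7.98 Mb fell and 7 rose, with a median of -0.37, and TEAD1 stood at 0.08 relative to them (adjusted p = 0.407).

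TEAD2 and CCN2 kept their calls relative to the neighbour median. The 50 neighbours of TEAD2, over 1.17 Mb, had a median of -0.08, with 18 lower and 7 higher, and only 2 of them had fallen further than TEAD2. Set against these neighbours TEAD2 fell by 0.89 (log2; adjusted p = 7.38e-08, edgeR). CCN2, with a neighbour median of 0.06, stood 0.26 above that median (adjusted p = 0.0252, edgeR). Its log2 change nevertheless lay between the quartiles of its 50 neighbours (-0.115 and 0.457), with 35 of them below it. YAP1 depended on the window. Its 50 neighbours over 13.3 Mb had a median of 0.13, and relative to them YAP1 stood at 0.08 (adjusted p = 0.199, edgeR). Relative to the 10 neighbours on each side, a window chosen after the data were seen, it fell by 0.31 (adjusted p = 3.85e-05, edgeR), where the neighbour median was 0.52. These 20 neighbours went both ways, with 12 higher, 4 lower and 4 not passed, and log2 changes from -0.47 to 2.80. With 10 neighbours on each side CCN1 also passed, at -0.19 (adjusted p = 0.0112, edgeR), whereas with 25 on each side it did not (-0.12, adjusted p = 0.0955). WWTR1, TEAD3, ANKRD1 and AMOTL2 did not pass with 10, 25 or 50 on each side. Relative to 25 neighbours on each side 2 of 10 genes thus passed, 1 in each direction, while 44.7% of 19604 genes did (23.0% higher and 21.7% lower).

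**Figure D3:**
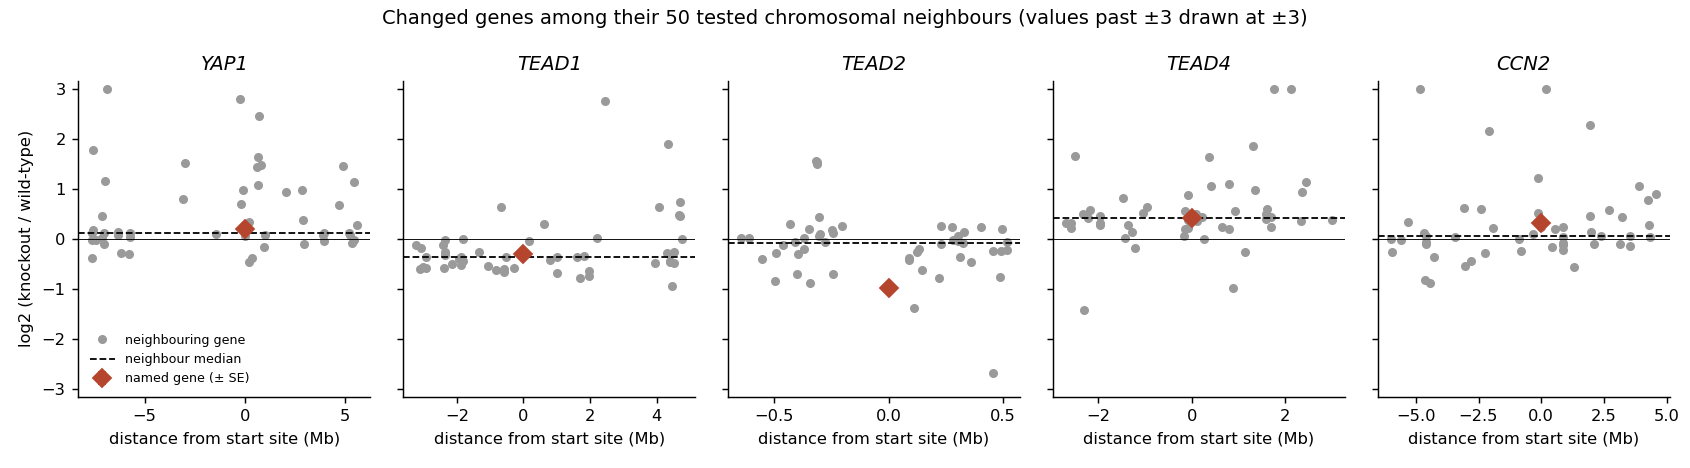
Log2 change (knockout over wild-type, y axis) of the 50 tested genes nearest to each of the changed genes, against the distance between start sites in Mb (x axis); the diamond is the named gene ± SE and the dashed line the neighbour median, and values past 3 in size are drawn at 3. TEAD4 and TEAD1 lie close to their neighbour medians of 0.43 and -0.37, and TEAD2, at -0.98, lies well below its median of -0.08.

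**Figure D4:**
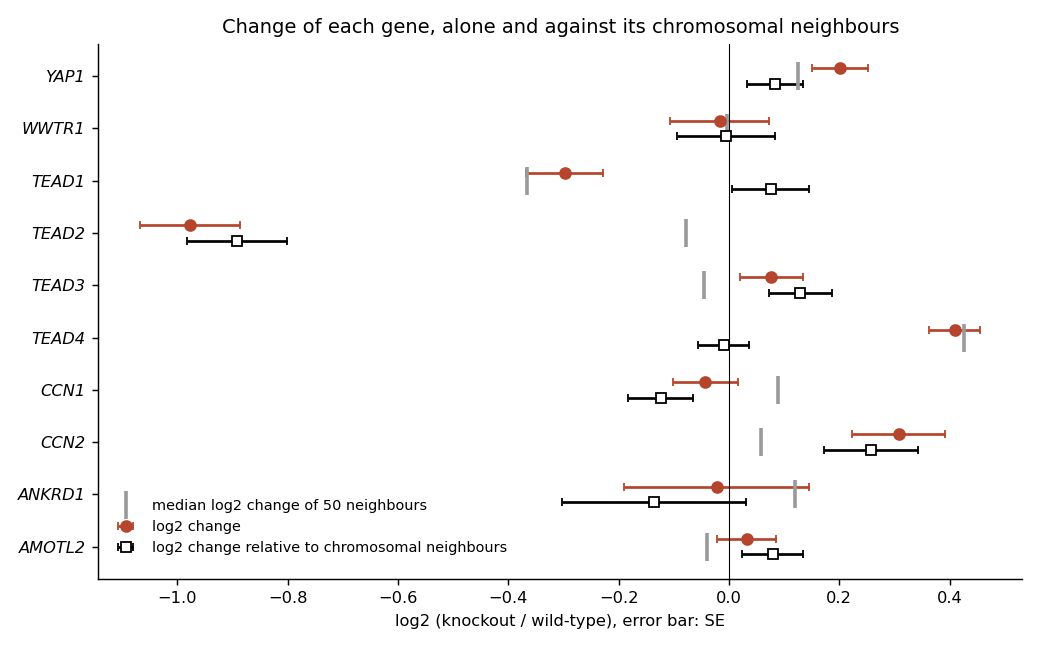
Log2 change of each gene (filled circles), the median of its 50 chromosomal neighbours (grey ticks) and the change relative to that median (open squares), with SE as bars. Relative to neighbours, TEAD4 and TEAD1 move to -0.01 and 0.08, and TEAD2 and CCN2 stay at -0.89 and 0.26.

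Per length, the targets CCN1, ANKRD1 and CCN2 were the most abundant of the 10 transcripts. CCN1 stood at 621 ± 25.4 CPM per kb in knockout and 639 ± 54.2 in wild-type cells (SD, n = 4 each). ANKRD1 (387 ± 64.1 in knockout and 393 ± 68.2 in wild-type) and CCN2 (349.7 ± 23.1 in knockout and 282 ± 40.3 in wild-type) overlapped each other in both groups. YAP1, at 60.9 ± 4.06 CPM per kb in knockout and 52.9 ± 1.61 in wild-type cells, overlapped AMOTL2 in both groups and lay above every TEAD gene. WWTR1 stood at 11.7 ± 1.20 CPM per kb in knockout and 11.8 ± 1.34 in wild-type cells, so YAP1 made up 83.9 ± 0.665% of the pair in knockout and 81.8 ± 1.42% in wild-type cells. TEAD2 was lowest, at 2.20 ± 0.155 CPM per kb in knockout and 4.34 ± 0.487 in wild-type cells. Antisense or overlapping genes that share exon bases with YAP1, WWTR1, TEAD2, CCN2 or AMOTL2 had at most 1.01% of that gene's counts, for WWTR1-AS1 and WWTR1, in any library.

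Upstream of YAP, the kinase cassette (MST and LATS kinases, their MOB1 and SAV1 scaffolds, and MAP4K and TAO kinases) had 6 genes higher, 4 lower and 6 not passed of 16 tested, out of 17 listed, with a median log2 change of 0.06. The share called was 62.5%, against 47.6% of all tested genes (23.9% higher and 23.6% lower). In a fit of only genes with mean log2 CPM of at least 1, 11 genes of this list passed. Of all genes in that fit 7509 of 13342 passed, a larger share than 47.6%. The background share thus depends on expression level, for this list and those below. TAOK3, a TAO kinase that activates the MST kinases, fell to 102 ± 6.20 CPM in knockout cells, against 157 ± 9.02 CPM in wild-type cells. TNIK, a MAP4K-family kinase, rose to 25.4 ± 1.47 CPM in knockout cells, against 14.98 ± 1.16 CPM in wild-type cells. TAOK2 was at 122 ± 5.05 CPM in knockout and 93.2 ± 1.93 CPM in wild-type cells, a log2 rise of 0.39. LATS2, which phosphorylates YAP and is itself a YAP target, rose to 94.5 ± 3.04 CPM in knockout cells, against 72.2 ± 3.71 CPM in wild-type cells (log2 change 0.39, adjusted p = 7.91e-07, edgeR). All 4 kept their call relative to chromosomal neighbours, with log2 values of -0.58, 0.73, 0.30 and 0.33.

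Scaffolds at the membrane and cell junctions had 3 genes higher, 6 lower and 6 not passed of 15 tested, out of 16 listed, with a median log2 change of -0.04 (60% called, against 47.6% of all tested genes, with 23.9% higher and 23.6% lower). AMOT, the angiomotin that binds YAP, showed the largest change among the tested genes of these pathway lists. It rose to 21.5 ± 0.803 CPM in knockout cells, against 5.18 ± 0.475 CPM in wild-type cells (SD, n = 4 each; log2 change 2.05, SE 0.08, adjusted p = 1.11e-14, edgeR), whereas its paralog AMOTL2 did not pass. WWC2, a relative of the scaffold KIBRA that supports LATS activity, fell to 43.6 ± 4.21 CPM in knockout cells, against 89.9 ± 1.88 CPM in wild-type cells. LIMD1, a LIM protein that binds LATS kinases, had a log2 change of -0.63 and the polarity scaffold SCRIB of -0.42. Relative to neighbours AMOT stood at 1.96 and WWC2 at -0.18 (adjusted p = 0.0132, edgeR), while LIMD1, whose neighbours had a median of -0.58, stood at -0.05 (adjusted p = 0.429). SCRIB fell by 0.23 relative to its neighbours (adjusted p = 0.000306).

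STRIPAK, the phosphatase complex that keeps MST kinases inactive, had 3 genes higher, 3 lower and 8 not passed of 14, a share of 42.9% called, near the 47.6% of all tested genes. SLMAP, the adaptor that brings STRIPAK to the MST kinases, fell to 98.7 ± 6.34 CPM in knockout cells, against 142 ± 1.98 CPM in wild-type cells. Its neighbours had a median log2 change of -0.50, and relative to them it stood at -0.01 (adjusted p = 0.831, edgeR). STRIP2, FGFR1OP2 and CTTNBP2NL, other parts of the complex, rose by 0.27, 0.27 and 0.21 on the log2 scale, of which FGFR1OP2 came to -0.04 against its own neighbours (adjusted p = 0.544). Of the VGLL cofactors, which bind TEAD in place of YAP, 2 of 4 were tested. VGLL3 rose to 42.1 ± 2.45 CPM in knockout cells, against 27.0 ± 1.13 CPM in wild-type cells (log2 change 0.64, adjusted p = 5.08e-09, edgeR), and VGLL4 stood at 47.1 ± 2.79 CPM in knockout and 45.7 ± 2.18 CPM in wild-type cells and did not pass (adjusted p = 0.524).

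A further 18 genes of a published pan-cancer signature of YAP and TAZ targets, from which the 4 targets above were left out, gave 5 higher, 9 lower and 4 not passed. The share called was 77.8%, against 47.6% of all tested genes (23.9% higher and 23.6% lower). In the fit of genes with mean log2 CPM of at least 1, 15 of the list passed, against 7509 of 13342 genes. The median log2 change was -0.14, against 0.0025 for all tested genes. TGFB2, a TGF-beta ligand, fell to 35.4 ± 3.33 CPM in knockout cells, against 69.1 ± 4.70 CPM in wild-type cells. The RNA-binding protein RBMS3 fell by 0.74 on the log2 scale, the secreted four-jointed homolog FJX1 by 0.66, and MYOF, a membrane protein of the ferlin family, by 0.48. All 4 were also lower relative to their neighbours, with log2 values of -0.96, -0.67, -0.23 and -0.48. LATS2 belongs to this list and to the kinases and was among those that rose. IGFBP3, an IGF-binding protein named after its value was seen, rose furthest, to 104 ± 12.4 CPM in knockout cells, against 49.0 ± 5.98 CPM in wild-type cells. Relative to neighbours 3 of the 18 rose and 8 fell, against 23.0% higher and 21.7% lower of 19604 genes in that test.

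CCN1 and CCN2 are also immediate early genes, which serum induces through SRF and AP-1, and a list of 12 such genes was read beside them. Of 10 tested, 7 rose, 1 fell and 2 did not pass, with a median log2 change of 0.325 (80% called, against 47.6% of all tested genes, with 23.9% higher and 23.6% lower). FOS, a subunit of AP-1, was at 10.2 ± 0.836 CPM in knockout and 5.69 ± 0.725 CPM in wild-type cells (log2 change 0.84, adjusted p = 3.62e-07, edgeR). JUNB, its partner, rose by 0.36 and the early gene IER2 by 0.29 on the log2 scale. SRF, the serum response factor, fell to 112 ± 2.96 CPM in knockout cells, against 138 ± 7.98 CPM in wild-type cells. Without knockout replicate 1, 5 of these genes passed instead of 8.

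**Figure D5:**
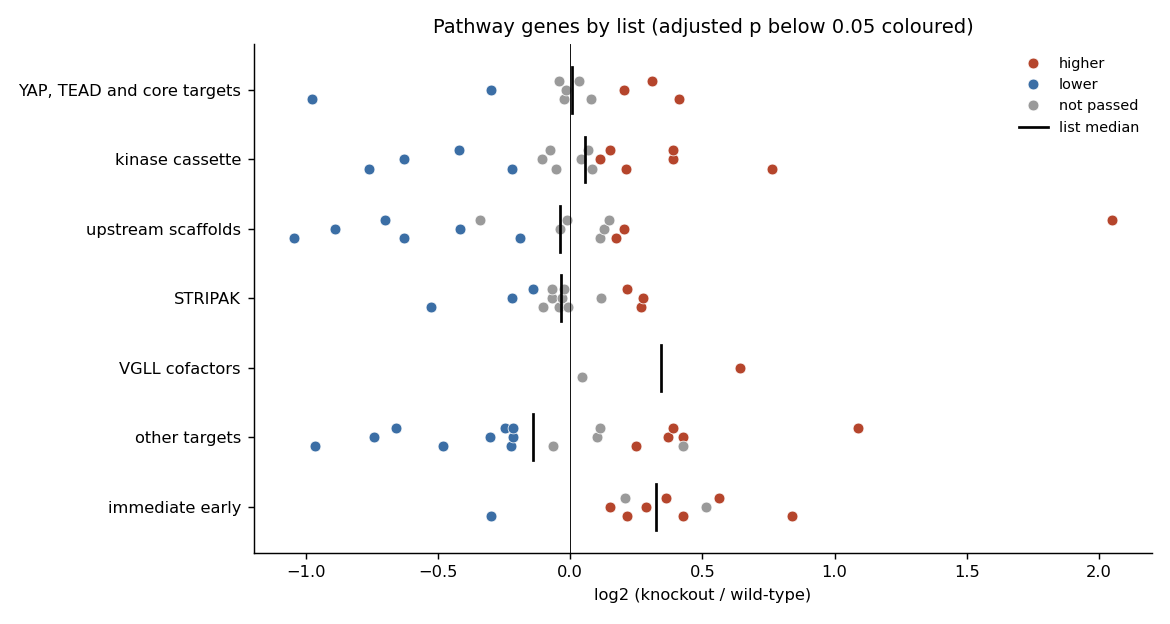
Log2 change (knockout over wild-type) of every tested gene of each list, coloured where the adjusted p was below 0.05 (higher, lower) and grey where it was not; black bars are list medians. AMOT, at 2.05 among the upstream scaffolds, lies furthest from 0, and the immediate early list has the highest median of the lists with at least 10 tested genes.

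The genes whose log2 CPM, centred over the 8 samples, lay closest to each target were found among 13342 genes by root-mean-square difference. For CCN2 they were NAT1 (0.0489) and MT2A (0.0516), for CCN1 TMEM147 (0.0265) and FOXRED2 (0.0325), for ANKRD1 ACAT2 (0.0945) and ITGB3 (0.0986), and for AMOTL2 EPHA2 (0.0264) and CHST10 (0.0348). Of these MT2A passed the test between groups, with a log2 change of 0.355 (adjusted p = 0.00488, edgeR), and NAT1, at 0.24, missed it (adjusted p = 0.0553). Both were picked for lying close to CCN2 in the same 8 samples, so a similar group change follows from the choice and is not a separate result.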

How the data were processed

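Per the labels' protocols, ribosomal RNA was removed from the total RNA of 8 MDA-MB-231 samples, and stranded libraries were read on a NextSeq 2000 sequencer. The deposited counts are whole reads per Ensembl gene, and the authors also deposited log2 values after a variance-stabilizing transformation. Per the submitters' processing notes the tools were FastQC 0.11.7, STAR 2.6.0c, Subread 1.6.2 with featureCounts, and DESeq2 1.23.10, and the build was hg38. The annotation release, strand setting and treatment of reads with several matches are not given in the sources used here. Symbols matched 60333 of 60646 identifiers, and GENCODE 29 (GRCh38) gave coordinates and exon lengths for 58459.

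Counts were tested in R 4.3.3 with edgeR 4.0.16 (filterByExpr, TMM scaling, robust quasi-likelihood fit, group as the single term, Benjamini-Hochberg over 19877 genes). SE are the log2 change over the root of F. DESeq2 1.42.0 and limma 3.58.1 (on the deposited log2 values) served as alternatives. The procedure was also run on simulated data. There few genes changed and same-numbered samples shared no effect, unlike in these data, so that run does not cover these conditions. Replicates are numbered 1, 2, 3 and 5 in either group. Deviations from group means correlated at 0.371, 0.146, 0.147 and 0.374 between same-numbered samples over 13342 genes, all of them above 0.1. Same-numbered samples were therefore also compared as pairs and fitted as a block. The main SE, intervals and adjusted p leave the pairing out. This pairing rests on these correlations and the shared labels. Pairs of replicates differed beyond sampling noise (chi-square per degree of freedom 3.41 to 18.4). Named genes were the 10 genes, DOT1L, the 4 smallest adjusted p of each list, and the 2 nearest profiles of each target. The genes, lists and tests were chosen with earlier results of these data known. Lists were described by counts and medians, without a test of the list.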

Additional observations from a re-analysis of the deposited data

Results flagged for a closer look

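Among 80 groups of 4 libraries examined for the genes and ratios above, 3 held a library far from the others, and chance alone gives about 1 in 20. CCN2 was at 800 CPM in wild-type replicate 3, against 594 to 628 CPM in the other wild-type libraries. TNIK was at 13.2 CPM in wild-type replicate 1, against 15.5 to 15.6 CPM in the others. SCRIB was at 224 CPM in wild-type replicate 5, against 205 to 207 CPM in the others.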

How the results depend on the processing

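YAP1, TEAD2, TEAD4, TEAD1 and CCN2 kept their direction and an adjusted p below 0.05 with DESeq2, upper-quartile scaling, library totals, both other filters, limma on the deposited log2 values, the replicate block and without each library in turn; the count of 5 moved by less than 1.5 times under all of these. The replicate block changed no call among the 10 genes, for which 3 were higher and 2 lower with it. Relative to 25 or 50 chromosomal neighbours on each side 2 of the 10 passed, 1 higher and 1 lower, and with 10 on each side 4 passed, 1 higher (CCN2) and 3 lower (TEAD2, YAP1 and CCN1, which stood at -0.192 with adjusted p = 0.0112). The neighbour windows of 10 and 50 were chosen after seeing the data. Signs turned for TEAD1 (0.0761, and 0.132 and 0.0971 with 10 and 50 neighbours), TEAD4 (-0.00933, -0.0263 and -0.0289) and YAP1 (-0.313 with 10), for SLMAP (0.0319 with 10), FGFR1OP2 (-0.0393, and -0.112 with 10) and VGLL4 (-0.0122 with 50). Among genes that did not pass, upper-quartile scaling and library totals gave 0.0471 and 0.0427 for WWTR1, 0.0233 and 0.0214 for CCN1, and 0.0445 and 0.0438 for ANKRD1. A stricter filter (mean log2 CPM from 1 up) gave 0.0109 for WWTR1 and 0.00825 for ANKRD1, and 50 neighbours gave 0.000392 for WWTR1; the cause was not tested. Without each library in turn WWTR1 ran from -0.0778 to 0.0467, CCN1 from -0.0807 to 0.0202, ANKRD1 from -0.0927 to 0.103 and AMOTL2 from -0.0173 to 0.0639, and the number of immediate early genes that passed from 5 to 10. With the replicate block as a sign-flip test over pairs 0 of 8 ratios passed, since 4 pairs cannot give a p below 0.125.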

Other observations

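Among the upstream kinases and scaffolds, 4 genes that fell lie on chromosome 4 and were picked out after their values were seen. WWC2, FAT4, MOB1B (a LATS activator) and FAT1 (like FAT4 a giant protocadherin) had log2 changes of -1.04, -0.89, -0.76 and -0.70. The median log2 changes of their chromosomal neighbours were -0.85, -0.73, -0.61 and -0.87. Relative to these neighbours WWC2 stood at -0.18 (adjusted p = 0.0132, edgeR), and FAT4 (-0.15, adjusted p = 0.289), MOB1B (-0.15, 0.157) and FAT1 (0.18, 0.0692) did not pass.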
